A study of Mus musculus with 6 samples.

Results

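The E2F factors and the retinoblastoma (RB) family were followed in mouse CD8+ T cells through the RNA of 10 genes, taken as the rows of the count table whose symbol was E2f1, E2f2, E2f3, E2f4, E2f6, E2f7, E2f8, Rb1, Rbl1 or Rbl2. All 10 were found among the 11922 genes in the table, and all 10 were among the 11759 that passed the filter on low counts. CD8+ T cells from the spleens of 3 C57BL6/J mice were isolated on magnetic columns by CD8α, and all cultures received anti-CD3/anti-CD28 beads, which were removed after 3 days, and interleukin-2 at 100 units per ml for the whole 7 days. Cultures had either water as vehicle or 0.25 mM AOA (aminoxyacetic acid), an inhibitor of enzymes that use the vitamin B6 cofactor PLP. Each mouse gave a culture to each group, and the 3 libraries of a group carry the number of their mouse. The study's methods put all its mice at over 6 weeks of age, and the labels name no transgene or deletion.

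E2F proteins bind DNA at the start sites of genes needed for DNA replication and cell division. E2F1, E2F2 and E2F3 are classed as activators, E2F4 acts mainly in repressing complexes, E2F6 represses without contact to the RB family, and the atypical members E2F7 and E2F8 repress without a dimer partner. RB (Rb1), p107 (Rbl1) and p130 (Rbl2), called pocket proteins, bind E2Fs and hold their targets down until kinases of the G1 phase phosphorylate them. In lymphocytes p130 is known from resting cells, p107 from dividing cells, and activation of a resting T cell switches E2F target genes on.

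Counts per library totalled between 12881962 and 21997078, of which the 10 genes took between 6928 and 22029. Levels are given as CPM (counts scaled to library size, with TMM correction) and, wherever different genes are compared, as RPKM, which divides the same value by the gene length in the table. Changes are log2 fold changes of AOA relative to vehicle from edgeR, with p-values adjusted over all tested genes, and a gene is called at an adjusted p under 0.05. In these counts 53.0% of all tested genes were called, 26.2% higher and 26.8% lower, so a call alone is common here. Vehicle replicate 2 stood apart from vehicle replicates 1 and 3, with a chi-square per gene of 54.7 and 59.4 against 9.93 between those 2, and AOA replicate 1 stood apart from AOA replicates 2 and 3, with 70.1 and 63.5 against 10.4. The CD8 T cell markers Cd3d, Cd3e, Cd3g, Cd8a and Cd8b1 summed to 2908 to 3737 CPM with vehicle and 3994 to 4644 CPM with AOA. Within this list Cd8a and Cd8b1 were called higher (log2 fold changes 1.03 and 0.64), while Cd3d, Cd3e and Cd3g were at -0.13, -0.27 and -0.31 and were not called. Of the markers of other cells, the 3 CD4 T cell genes summed to 82.2 to 137 CPM with vehicle and 21.7 to 31.3 CPM with AOA, and the 3 myeloid genes in the table to 55.2 to 66.5 and 4.18 to 7.77 CPM, while the defining myeloid genes Csf1r and Adgre1 had no row. Cd4, Cd40lg, Itgam and Cd68 were called lower, Foxp3 was not called (log2 fold change 0.36, higher in 3 of 3 mice), and Lyz2 stood at 0 to 1.16 CPM and was not tested. The 2 natural killer genes summed to 20.1 to 114 and 3.53 to 11.6 CPM, and the 4 B cell genes to 12.6 to 16.6 and 22.6 to 30.7 CPM. The B cell genes did not move together, as 1 was called higher and 3 were not called. Their log2 fold changes ran from -1.07 to 1.01, with a median of -0.16. No erythroid marker had a row. The part of these markers in the results was not tested, and in bulk RNA fewer cells of a type and less RNA per cell cannot be told apart.

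Many E2F genes are themselves E2F targets, so the DNA before their start sites was read. The promoter windows of RefSeq on GRCm38.p6 matched 8 of the 10 genes, and none was found for E2f4 and Rb1. Each window ran from 250 bases before a start site to 50 bases after it, and was searched on both strands for the E2F letters TTTCCCGC and TTTGGCGC. These were present in a window of E2f2, E2f3 and E2f7, that is 3 of 8 genes, and in 1.8% of all 27025 genes with a window, 3.69% of the 9438 tested genes with a window and 6.05% of the 2512 of these called higher. A wider search chosen after the data had been seen, which added TTTCGCGC and TTTGCCGC, also matched Rbl1, and 2.6% of all genes and 4.96% of tested genes held any of these 4 words. The start sites on which the windows of E2f1 and E2f8 were set lay 466 and 477 bases inside the RefSeq gene, although that of E2f8 is the gene start in GENCODE. In E2f2 the match began at base 40 of the transcript. The bases before the start site are shown for E2f3, E2f7, Rbl1 and Rbl2, 5′ to 3′ on the strand of the gene, with the matched letters in capitals (GCGGGAAA is TTTCCCGC read on the other strand). The first 3 hold a match and Rbl2 holds none. The windows of E2f1, E2f6 and E2f8 held none either, and that of E2f1 did not reach the bases before the gene start.
E2f3, chr13:29986064-29986313, minus strand: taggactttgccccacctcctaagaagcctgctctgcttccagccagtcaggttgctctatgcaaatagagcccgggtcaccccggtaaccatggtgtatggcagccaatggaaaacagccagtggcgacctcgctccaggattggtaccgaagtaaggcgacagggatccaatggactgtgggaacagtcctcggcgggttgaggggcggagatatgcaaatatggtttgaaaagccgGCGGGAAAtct
E2f7, chr10:110745189-110745438, plus strand: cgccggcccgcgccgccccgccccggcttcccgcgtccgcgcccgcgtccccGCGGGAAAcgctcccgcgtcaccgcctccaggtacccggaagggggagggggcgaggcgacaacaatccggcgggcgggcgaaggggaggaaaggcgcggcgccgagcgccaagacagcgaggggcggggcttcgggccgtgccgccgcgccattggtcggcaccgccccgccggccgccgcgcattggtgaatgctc
Rbl1, chr2:157204535-157204784, minus strand: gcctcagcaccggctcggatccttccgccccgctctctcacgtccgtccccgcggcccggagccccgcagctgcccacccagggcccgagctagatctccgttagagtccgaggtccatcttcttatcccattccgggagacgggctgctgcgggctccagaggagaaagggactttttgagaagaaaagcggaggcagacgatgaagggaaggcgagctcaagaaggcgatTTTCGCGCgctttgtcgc
Rbl2, chr8:91069807-91070056, plus strand: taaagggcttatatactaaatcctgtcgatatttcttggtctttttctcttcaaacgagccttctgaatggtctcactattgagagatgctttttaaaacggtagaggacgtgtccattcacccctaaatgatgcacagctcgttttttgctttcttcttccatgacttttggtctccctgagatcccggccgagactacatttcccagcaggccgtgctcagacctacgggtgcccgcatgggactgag
The matched letters began 11 bases before the start site in E2f3, 198 in E2f7 and 18 in Rbl1. A match of letters is a description of the sequence and does not show that a factor was bound.

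Of the 10 genes, 8 were called higher with AOA, against 26.2% of all genes tested, and 0 were called lower, against 26.8%. The 8 were Rbl1 and all 7 E2F genes among the 10, while Rb1 and Rbl2 were not called. E2f5, which was not among the 10, was not called either (log2 fold change -0.38, adjusted p = 0.217 by edgeR). In those 8 genes every AOA library lay above every vehicle library, which held for 31.0% of all tested genes, and in Rbl2 every AOA library lay below every vehicle library, which held for 31.1%. The median log2 fold change was 1.44 over the 10 genes and -0.02 over all tested genes. At an unadjusted p under 0.05 the count of lower genes was 1 (Rbl2), and it was also 1 by DESeq2 and in the edgeR fit with a replicate block for the mouse, in which Rbl2 had an adjusted p of 0.0418.

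**Figure D1:**
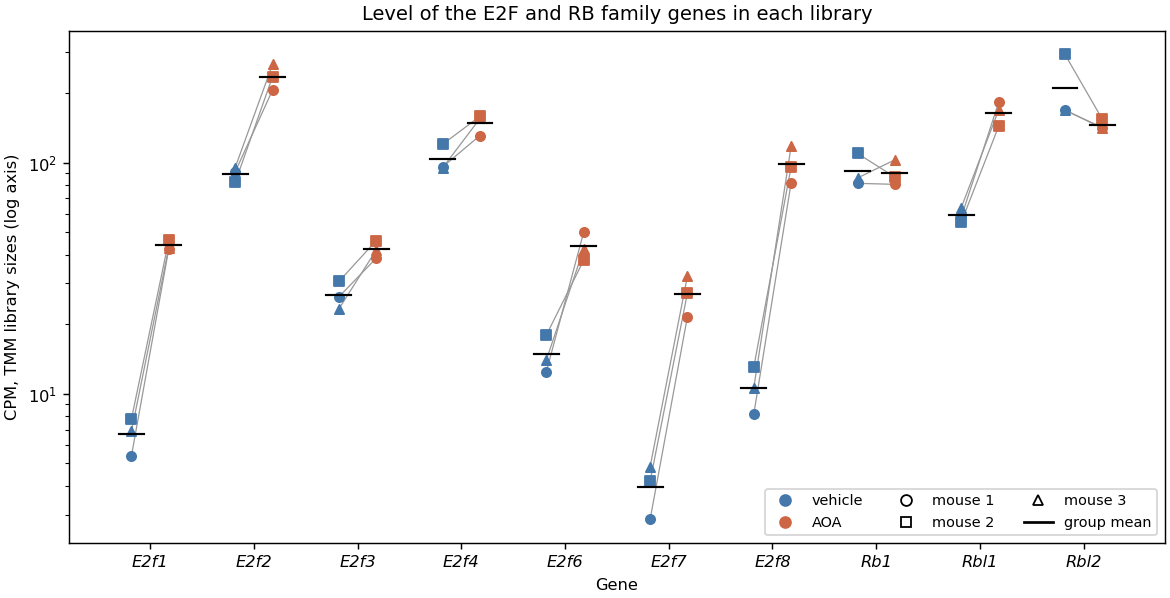
Level of each of the 10 genes in CPM (vertical axis, log scale) in the vehicle and AOA libraries, with a symbol for each mouse, a grey line joining the cultures of a mouse and a black bar at the group mean. The AOA points lie above all vehicle points in the 7 E2F genes and Rbl1, overlap in Rb1 and lie below in Rbl2, where vehicle replicate 2 is at 294 CPM.

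Among the activators, E2f1 had the largest fold change (Entrez gene 13555, chromosome 2 of GRCm38 from 154559407 to 154569892 in GENCODE vM21). It encodes the founding E2F, which drives entry into S phase and at high activity can drive cell death. Its level was 5.40, 7.80 and 6.89 CPM in vehicle replicates 1, 2 and 3 and 42.4, 46.1 and 42.9 CPM in AOA replicates 1, 2 and 3. The groups were far apart and the AOA libraries close together. Mean E2f1 was 6.70 ± 1.21 CPM in vehicle and 43.8 ± 1.98 CPM in AOA libraries (SD, n = 3 each), a 6.51-fold difference (log2 fold change 2.70, standard error 0.17, adjusted p = 1.40e-05 by edgeR). The log2 CPM differences within mice 1, 2 and 3 were 2.94, 2.54 and 2.62, and 147 of all tested genes had a larger log2 fold change.

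E2f2 (Entrez gene 242705, chromosome 4 from 136172394 to 136196057), an activator with known roles in lymphocytes, was the most abundant of the 3 per length, at 17.9 ± 1.34 RPKM (SD, n = 3) in vehicle libraries. Its level was 91.2, 82.1 and 95.2 CPM in the vehicle libraries and 206, 235 and 266 CPM in the AOA libraries. These groups did not overlap, and E2f2 rose 2.63-fold (log2 fold change 1.40, standard error 0.14, adjusted p = 9.44e-05 by edgeR). E2f3 (Entrez gene 13557, chromosome 13 from 29906575 to 29986063) encodes E2F3A and E2F3B from separate start sites, and counts per gene cannot divide them. It had the smallest fold change of the activators and rose from 26.3, 30.6 and 23.3 CPM with vehicle to 38.6, 46.0 and 41.9 CPM with AOA (log2 fold change 0.66, standard error 0.15, adjusted p = 0.00565 by edgeR). Its call was kept in every alternative fit, with a log2 fold change between 0.59 and 0.80. Summed per length, the activators stood at 24.9, 24.6 and 25.6 RPKM with vehicle and at 62.1, 70.5 and 74.8 RPKM with AOA. The vehicle libraries lay close together and all AOA libraries lay well above them.

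The atypical repressors E2f8 and E2f7 had the highest fold changes of the family, though that of E2f7 was within its standard error of that of E2f1. E2f8 (Entrez gene 108961, chromosome 7 from 48866429 to 48881596) went from 8.17, 13.1 and 10.6 CPM with vehicle to 82.0, 96.1 and 118 CPM with AOA. The lowest AOA library stood far above the highest vehicle library. The change was 9.26-fold (log2 fold change 3.21, standard error 0.21, adjusted p = 1.42e-05 by edgeR), and 72 of the tested genes rose more. E2f7 (Entrez gene 52679, chromosome 10 from 110745439 to 110787384) was the least abundant member per length with vehicle (0.723 ± 0.184 RPKM, SD, n = 3), at 2.86, 4.18 and 4.83 CPM, which were 36, 66 and 89 counts. With AOA it stood at 21.6, 27.3 and 32.3 CPM, a 6.76-fold change (log2 fold change 2.76, standard error 0.24, adjusted p = 4.28e-05 by edgeR). In both genes the order of the AOA libraries was the same, with AOA replicate 1 lowest and AOA replicate 3 highest. Within mice the log2 CPM difference ran from 2.87 to 3.46 for E2f8 and from 2.67 to 2.84 for E2f7. E2f8 and E2f7 share exonic bases with unlisted transcripts of the opposite strand, 610 of 5443 for E2f8 and 86 of 9009 for E2f7, and which strand the counting used is not stated in the sources used. Their summed level was 0.144 ± 0.0324 of the summed activator level (RPKM ratio, SD, n = 3) with vehicle and 0.456 ± 0.0447 with AOA. The ratio was higher in each AOA library than in any vehicle library (exact permutation test, two-sided, p = 0.1, the smallest that 3 against 3 can give).

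E2f6 (Entrez gene 50496, chromosome 12 from 16810963 to 16839742), the Polycomb-linked repressor, had 12.5, 17.9 and 14.0 CPM with vehicle and 50.1, 37.8 and 42.4 CPM with AOA. Here AOA replicate 1 was the highest library, unlike in E2f7 and E2f8. E2f6 rose 2.93-fold (log2 fold change 1.55, standard error 0.18, adjusted p = 1.79e-04 by edgeR), and the differences within mice ranged from 1.07 to 1.99, the widest range among the 8 genes called. E2f4 (Entrez gene 104394, chromosome 8 from 105297663 to 105305370), which binds pocket proteins in resting cells, had the smallest fold change of the E2F members. Its level was 95.8, 120 and 94.9 CPM with vehicle and 131, 159 and 155 CPM with AOA. The gap between vehicle replicate 2 and AOA replicate 1 was small, and E2f4 rose 1.43-fold (log2 fold change 0.52, standard error 0.15, adjusted p = 0.0155 by edgeR). The call of E2f4 was lost without vehicle replicate 1 (adjusted p = 0.0628 by edgeR), vehicle replicate 3 (0.0632), AOA replicate 2 (0.0538) or AOA replicate 3 (0.0566), with log2 fold changes between 0.47 and 0.49. E2f5, the close relative of E2f4, was outside the rule and was looked at after its values were seen. It had 6.51, 5.64 and 6.08 CPM with vehicle and 5.84, 4.33 and 3.83 CPM with AOA, and was lower with AOA in each mouse. E2f5 was not called (log2 fold change -0.38, standard error 0.24, adjusted p = 0.217 by edgeR).

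**Figure D2:**
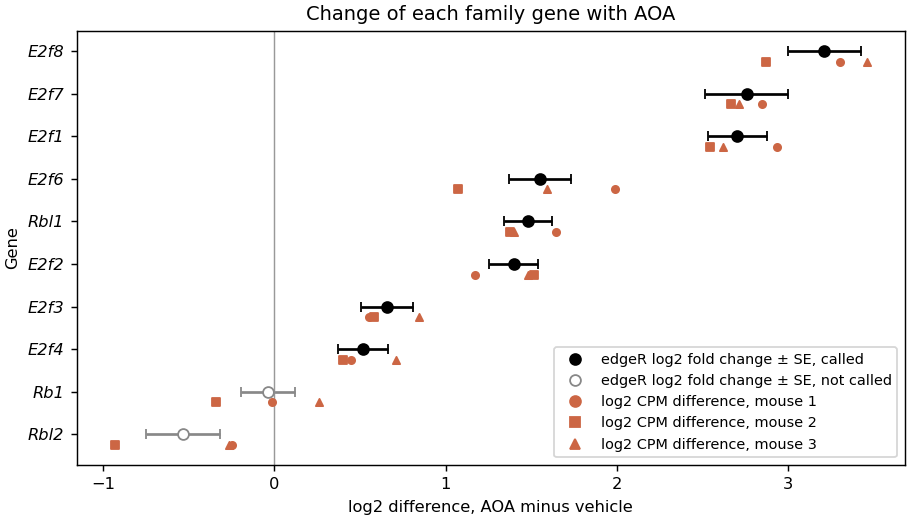
Log2 difference between AOA and vehicle (horizontal axis) for each gene, ordered by size. Round black or open points with bars give the edgeR log2 fold change and its standard error, filled where called, and the coloured symbols below them give the log2 CPM difference within each mouse. E2f8, E2f7 and E2f1 lie at 2.70 or more, E2f6, Rbl1 and E2f2 between 1.40 and 1.55, and Rb1 and Rbl2 at -0.04 and -0.53.

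The pocket proteins did not move together. Rbl1 (Entrez gene 19650, chromosome 2 from 157145893 to 157204534) rose from 58.1, 55.2 and 63.9 CPM with vehicle to 182, 143 and 169 CPM with AOA. All AOA libraries were well above all vehicle libraries (log2 fold change 1.48, standard error 0.14, adjusted p = 5.78e-05 by edgeR), and within mice the difference lay between 1.38 and 1.65. Rb1 (Entrez gene 19645, chromosome 14 from 73183673 to 73325822), the tumour suppressor that names the family, had 81.3, 110 and 85.8 CPM with vehicle and 80.5, 86.6 and 103 CPM with AOA. The groups overlapped, it was lower in 2 mice and higher in 1, and it was not called (log2 fold change -0.04, standard error 0.16, adjusted p = 0.863 by edgeR). That value turned positive without vehicle replicate 2 (0.14) or without AOA replicate 1 (0.04), also not called. Rb1 shares 488 of 6015 exonic bases with Rcbtb2 and 408 with Lpar6, both on the opposite strand. Lpar6 was itself called lower (log2 fold change -0.73, adjusted p = 0.0133 by edgeR).

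Rbl2 (Entrez gene 19651, chromosome 8 from 91070057 to 91123844) had 168, 294 and 169 CPM with vehicle and 142, 154 and 141 CPM with AOA. Vehicle replicate 2 was far above the other libraries, while the remaining vehicle libraries were only slightly above the AOA libraries. The gene was lower with AOA in each mouse, with log2 CPM differences of -0.25, -0.93 and -0.26 in mice 1, 2 and 3. It was not called (log2 fold change -0.53, standard error 0.22, adjusted p = 0.0647 by edgeR). A fit with a replicate block for the mouse called it lower (-0.48, adjusted p = 0.0418 by edgeR), as did DESeq2 (-0.53, adjusted p = 0.0429) and the fit without vehicle replicate 3 (-0.65, adjusted p = 0.0497 by edgeR). Without vehicle replicate 2 the value was -0.18 (adjusted p = 0.258 by edgeR). Rbl2 shares 693 of 7558 exonic bases with Aktip on the opposite strand, and Aktip was not called (log2 fold change 0.09, adjusted p = 0.706 by edgeR), and a further 892 with a transcript that has no row in the table.

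Per length, the balance between family members differed between the groups. Shares and sums of E2F RNA are over the 7 E2F genes followed and leave out E2f5. With vehicle E2f5 had 3.47 ± 0.247 RPKM (SD, n = 3), between E2f3 (4.99) and E2f8 (2.88). With AOA it had 2.67 ± 0.597 RPKM (SD, n = 3). E2f4 held the largest share of E2F RNA in every library, 59.6%, 62.5% and 57.7% with vehicle and 37.8%, 40.6% and 37.5% with AOA. E2f2 came second, with 20.9% ± 3.35 (SD, n = 3) and 24.4% ± 1.05 (SD, n = 3). In vehicle libraries E2f6 (6.81%), E2f3 (5.75%), E2f8 (3.30%), E2f1 (2.49%) and E2f7 (0.836%) followed. In AOA libraries E2f8 came next with 13.8% ± 1.41 (SD, n = 3), ahead of E2f6 (9.14%), E2f1 (7.37%), E2f3 (4.09%) and E2f7 (2.55%). The ranges of E2f6 and E2f3 in vehicle libraries came close to each other, at 6.19% to 7.46% and 5.26% to 6.07%. With AOA those of E2f6 and E2f1 overlapped, at 7.72% to 11.5% and 6.67% to 7.87%. For pocket proteins, Rbl2 held 54.7%, 63.8% and 53.1% of the RNA with vehicle and 36.1%, 40.9% and 34.9% with AOA, while Rbl1 held 17.2%, 10.9% and 18.2% and then 42.1%, 34.6% and 38.0%. Rbl1 per Rbl2 was 0.276 ± 0.0923 (RPKM ratio, SD, n = 3) with vehicle and 1.03 ± 0.167 (SD, n = 3) with AOA. The differences for E2f2 and E2f6, 3.52 and 2.33 percentage points, were 1.59 without vehicle replicate 2 and 1.14 without AOA replicate 1. The share of Rb1 was 27.4% ± 1.80 (SD, n = 3) and 24.5% ± 2.66 (SD, n = 3). Its difference of -2.92 percentage points ran from -4.25 to -1.59 with single libraries left out. Of 12 shares compared, 11 did not overlap between groups and gave p = 0.1 by the exact permutation test (two-sided), the smallest possible here, or 0.109 after adjustment. That of Rb1 gave p = 0.2 in the same exact test. These shares are not separate results, as those of a set add up to the whole and the activator and atypical shares are sums of others. Among all tested genes, 31.0% lay higher and 31.1% lower with AOA without overlap. The summed level of the 7 E2F genes was 86.6 ± 8.57 RPKM (SD, n = 3) with vehicle and 193 ± 17.1 RPKM (SD, n = 3) with AOA. That of the pocket proteins was 62.5, 93.5 and 64.7 RPKM with vehicle and 79.8, 76.5 and 82.0 RPKM with AOA. The groups overlapped only through vehicle replicate 2, and without it every AOA library lay above the other vehicle libraries. E2F RNA per pocket protein RNA (RPKM ratio) was 1.29, 1.03 and 1.28 with vehicle and 2.18, 2.57 and 2.53 with AOA, with no overlap.

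**Figure D3:**
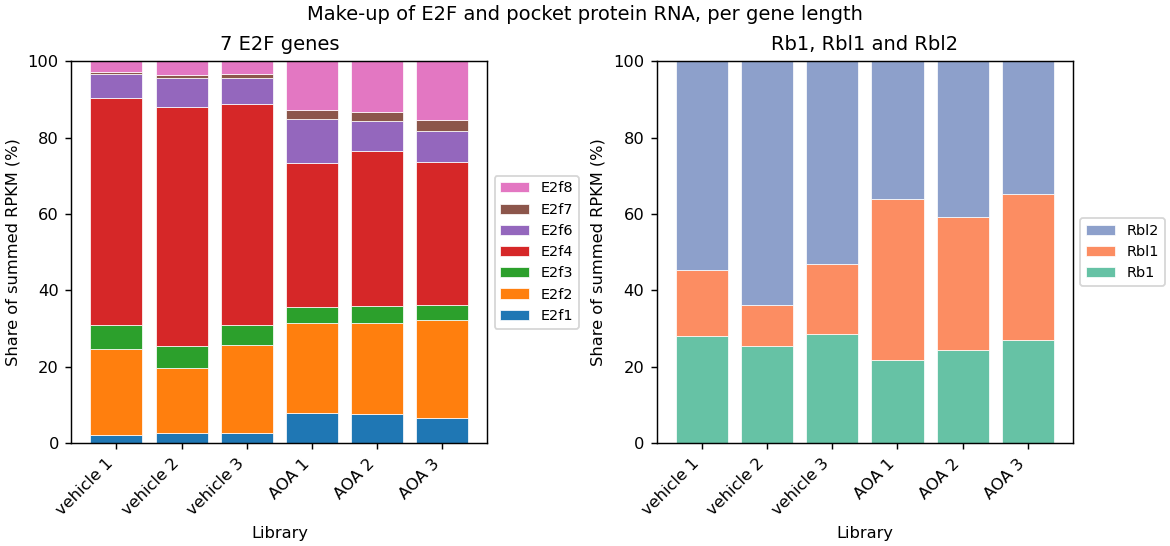
Share of summed RPKM (vertical axis, percent) of each E2F gene among the 7 E2F genes (left) and of each pocket protein gene among Rb1, Rbl1 and Rbl2 (right), 1 bar per library. E2f4 takes the largest E2F share in every library but less with AOA, where E2f8 reaches 13.8% on average, and Rbl1 goes from 15.4% to 38.3% of pocket protein RNA as Rbl2 goes from 57.2% to 37.3%.

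Partners of the family were examined against the 26.2% of all tested genes called higher and the 26.8% called lower. Of 9 genes for dimer partners and for the DREAM and MuvB complexes, in which p107 or p130 joins E2F4, 6 (66.7%) were called higher and 0 lower (median 1.32 on the log2 scale). Tfdp1, which encodes the main dimer partner DP1, had 33.6, 98.4 and 41.6 CPM with vehicle and 266, 280 and 248 CPM with AOA. Vehicle replicate 2 was again the highest of its group, but the groups did not overlap (log2 fold change 2.19, adjusted p = 9.07e-04 by edgeR). Foxm1 and Mybl2, the factors that MuvB joins later in the cycle, had log2 fold changes of 2.63 and 1.98, with adjusted p of 3.04e-05 and 4.29e-05 by edgeR. Tfdp2, Lin37 and Lin52 were not called, with log2 fold changes of -0.38, -0.34 and 0.51. Of 11 genes of corepressors that bind RB, 6 were higher and 3 lower (median 0.60), and the 27.3% lower is near the 26.8% of all tested genes. The histone binders and modifiers Rbbp7 and Suv39h1 rose most, by log2 fold changes of 2.05 and 1.79, and Kdm5a, Arid4b and Arid4a, which encode RB-binding proteins, fell by 0.76, 0.68 and 0.67 on the log2 scale. The fall of Arid4a was not called without vehicle replicate 1 (adjusted p = 0.0739 by edgeR) or without vehicle replicate 3 (0.0819). Of 10 genes of the Polycomb complex that contains E2F6, 5 were higher (4 without vehicle replicate 3 or AOA replicate 1), 0 lower and 5 not called, with a median of 0.37. Cbx3, Wdr5 and L3mbtl2 had log2 fold changes of 1.14, 0.75 and 0.70, while Ring1, Mga and Rnf2 were at -0.30, -0.12 and -0.10 and were not called. Of 10 germline genes that this complex silences, 2 had a row. Stag3 was not called (log2 fold change 0.17, adjusted p = 0.718 by edgeR), and Tuba3a, with 20, 8 and 16 counts with vehicle and 5, 5 and 3 with AOA, did not pass the low-count filter.

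Regulators of pocket protein phosphorylation were read against the same 26.2% higher and 26.8% lower of all tested genes. Of 10 genes, which encode cyclins and kinases that phosphorylate pocket proteins and the phosphatase CDC25A, which activates such kinases, 9 (90%) were called higher and 0 lower (median log2 fold change 1.27). Ccne2 and Ccna2, cyclins of the S phase kinases, led with log2 fold changes of 3.05 and 3.04. The D-type partners Cdk4 and Ccnd3 rose by 1.46 and 1.31, and Ccnd2, another D cyclin, had 270, 482 and 353 CPM with vehicle and 569, 613 and 657 CPM with AOA. The call of Ccnd2 (log2 fold change 0.74, adjusted p = 0.0158 by edgeR) was lost without vehicle replicate 1 (adjusted p = 0.0545) or AOA replicate 3 (adjusted p = 0.0527). Ccnd1 stood between 1.11 and 2.17 CPM in all libraries and was not called. Of 6 CDK inhibitor genes tested, 3 (50%) were lower and 1 (16.7%) higher, and with the filter of at least 10 CPM in 3 libraries 1 of the 4 then tested was lower. Cdkn1b, which encodes p27, was at 266, 157 and 238 CPM with vehicle and 111, 72.6 and 81.5 CPM with AOA (log2 fold change -1.32, adjusted p = 0.00130 by edgeR). Cdkn2b and Cdkn2a had log2 fold changes of -2.80 and -1.80, with vehicle replicate 2 highest at 26.7 and 24.4 CPM. Without that library the values were -1.42 and -1.10, still called. Cdkn2c, an inhibitor of CDK4 and CDK6, rose by 1.69 (adjusted p = 7.14e-05 by edgeR). Cdkn1a had 56.4, 217 and 73.2 CPM with vehicle and 81.3, 122 and 101 CPM with AOA. It was not called (log2 fold change -0.19, adjusted p = 0.733 by edgeR), but without vehicle replicate 2 it was called higher (0.68, adjusted p = 0.0157 by edgeR). The 4 genes for ubiquitin ligase subunits that mark E2F proteins or p130 for breakdown were all higher. Ccnf, Cks1b, Skp2 and Fzr1 had log2 fold changes of 2.93, 2.67, 2.53 and 0.56, with adjusted p of at most 0.00753 by edgeR.

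Among the targets, all 40 genes of a list of E2F targets at the passage from G1 to S phase were called higher, against 26.2% of all genes, with a median log2 fold change of 2.49 beside -0.02 over all genes. Cdc6, which loads the replicative helicase, went from 3.17, 7.99 and 4.13 CPM with vehicle to 64.4, 85.3 and 77.9 CPM with AOA (log2 fold change 3.88, adjusted p = 2.52e-05 by edgeR). Chek1, a checkpoint kinase, followed with a log2 fold change of 3.72. Cdt1, a helicase loading factor, was near the low end of the list at 0.58, and its call (adjusted p = 0.0390 by edgeR) was lost without vehicle replicate 3 or without any of the AOA replicates, with adjusted p between 0.0518 and 0.113. All 19 genes of a list of mitotic targets of B-MYB and FOXM1 were called higher, with a median of 2.35 and a range from 1.61 for Cenpe to 3.03 for Birc5.

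Of 8 tested targets of E2F in cell death, 3 (37.5%) were higher, 3 (37.5%) lower and 2 not called (median -0.28), beside 26.2% higher and 26.8% lower of all tested genes. With so few genes these counts show nothing particular to the list. Casp8ap2 rose by 0.84 on the log2 scale. The call of Pmaip1 (0.68, adjusted p = 0.0370 by edgeR) was lost without each library other than vehicle replicate 2 and with the stricter filter, with adjusted p between 0.0508 and 0.119. Bcl2l11, which encodes the death activator BIM, had 603, 319 and 631 CPM with vehicle and 112, 186 and 144 CPM with AOA (log2 fold change -1.81, adjusted p = 7.51e-04 by edgeR). Bbc3, which encodes PUMA, fell by 1.79 on the log2 scale. Trp73, which encodes the p53 relative p73, was counted 35, 238 and 48 times with vehicle and 0, 1 and 0 times with AOA and was called lower (adjusted p = 5.03e-04 by edgeR). Its groups did not overlap, and most of its vehicle counts came from vehicle replicate 2.

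**Figure D4:**
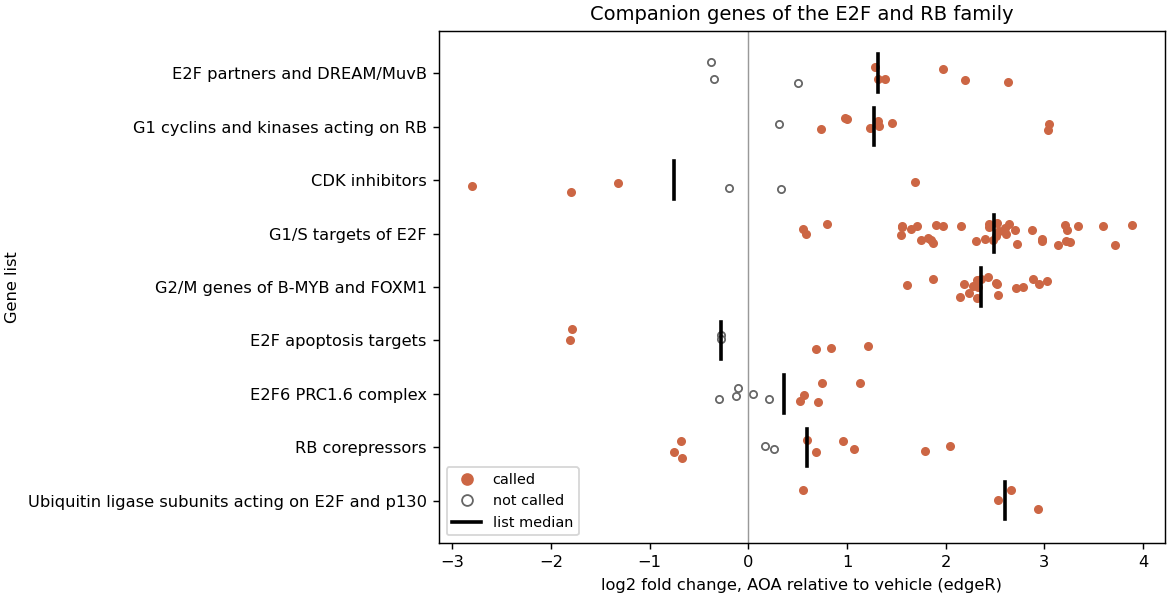
Log2 fold change with AOA (horizontal axis) of the tested genes in 9 lists of partners, regulators and targets of the family, filled where called and open where not, with a black bar at the list median. Trp73 is left out because it had 0, 1 and 0 counts in AOA replicates 1, 2 and 3, but it counts in the median of its list. All genes of the G1/S and G2/M lists lie above 0, and the CDK inhibitors and death genes lie on both sides.

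Across the 6 libraries, the genes closest to a member in pattern were found by the root mean square difference of centred log2 CPM, as a description over libraries of which 3 share each treatment. Closest to E2f1 were Rad54l (0.0788) and Zwilch (0.0882), and to E2f8 Uhrf1 (0.105) and P2ry1 (0.133). Rbl1 lay closest to Pole3 (0.0600) and Zfyve21 (0.0904), and E2f4 to Dhx37 (0.0294) and Sec23b (0.0457). For Rb1 these were Ivd (0.0289) and Fnbp1 (0.0546), and for Rbl2 Cars (0.0936) and Slc4a1ap (0.0938). All values are in log2 units, and Uhrf1 is also in the list of G1/S targets.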

How the data were processed

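RNA of mouse CD8+ T cells was sequenced in 6 libraries, 3 per group. Per the study's methods, stranded libraries were made from messenger RNA, and the authors aligned reads with STAR and counted those with a unique position. The submitters' processing notes name mm10 and featureCounts. The authors deposited raw counts per gene, with a symbol, Entrez number and length, and the filter behind the table, the annotation and the strand setting are not stated in the sources used. The members and gene lists were chosen with earlier results of these data known.

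The fit used edgeR 4.0.16 in R 4.3.3, with filterByExpr (minimum count 10), TMM and the robust quasi-likelihood test without the mouse, with Benjamini-Hochberg adjustment over 11759 genes and a threshold of 0.05. Alternatives were DESeq2 1.42.0, limma 3.58.1 (voom), other scalings and filters, the mouse as a replicate block, and each library left out. Log2 CPM had a prior count of 2. RPKM used TMM library sizes and the deposited length. The fits per gene were tested on simulated counts with set changes and no effect of the mouse. The shares, exact tests, letter search and nearest genes were not tested in this way. All 10 members, the genes of lists of at most 11 genes, the genes of each list with the 3 largest rises and falls, and the 2 nearest genes of 6 members could be named, and others with the smallest values were named after they were seen. Some genes of the lists enter the counts and medians but are not reported by name here.

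The labels give both groups the same mouse numbers, so the cultures are paired by mouse. Across genes, which are not independent, the vehicle and AOA deviations of mice 1, 2 and 3 had r of 0.0898, 0.192 and 0.195. The p-values measure the spread between cultures of 3 mice. The block is given in the text where it changed a call. Depth was 12881962 to 21997078 counts per library, at which 3 counts correspond to 0.136 to 0.233 CPM, a floor that covers counting error only. No column was left without a sample. Gene positions and overlaps came from GENCODE vM21 (GRCm38) and promoters from RefSeq (GRCm38.p6), the same assembly as mm10.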

Additional observations from a re-analysis of the deposited data

How the results depend on the processing

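The alternatives were those set for the fit across all genes, except the wider E2F letters, a choice made once the data were known. The 8 calls of members that rose became 7 where E2f4 was lost, which happened without vehicle replicates 1 or 3 or AOA replicates 2 or 3. The number of members called lower was 1 (Rbl2) by DESeq2 and with the mouse as a replicate block, and lay between 0 and 1 when single libraries were dropped. The block changed no other call of a member or list gene. The numbers of all genes called higher and lower stayed within 1.5 times their values. The median log2 fold change of all genes lay between -0.02 and -0.01 over the scalings and between -0.04 and 0.02 over all fits.

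For the lists, the partners called lower ranged from 0 to 1, the CDK inhibitors called higher from 1 to 2 and the germline genes called lower from 0 to 1 when single libraries were dropped. With at least 10 CPM in 3 libraries 1 CDK inhibitor was called lower, as only 4 were then tested, and without a low-count filter 1 germline gene (Tuba3a). Values of genes not called in the reported fit that changed sign were those of Rb1 (-0.14 to 0.14, with 0.04 without AOA replicate 1), Mga (-0.17 to 0.0322), Rnf2 (-0.20 to 0.0022), Yaf2 (-0.12 to 0.18, with -0.03 without vehicle replicate 2) and Stag3 (-0.14 to 0.39) in the same fits, and Cdkn1a (0.0487 by limma, 0.0523 with the block, -0.50 to 0.68 with libraries left out). The cause of these changes was not tested.

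Shares from counts not divided by length differed between AOA and vehicle by 4.29 percentage points for E2f1, 1.63 for E2f2, -3.81 for E2f3, -17.2 for E2f4, 1.14 for E2f6, 2.66 for E2f7, 2.12 for the activators and 13.9 for E2f7 with E2f8, where the values per length were 4.88, 3.52, -1.66, -21.3, 2.33, 1.71, 6.75 and 12.2, because long genes weigh more in counts. Ranked by Pearson correlation, 1 of the 12 nearest genes was shared. The 6-letter E2F cores TTCCCG and TTGGCG matched 4 of 8 member genes, against 34.6% of tested genes, and the wider letters 4, against 4.96%. Exact tests of 3 against 3 libraries cannot go below 0.1, and E2f7 had under 100 counts in each vehicle library.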

Other observations

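The E2F letters searched in the promoters of the family were also counted over all tested genes that had a RefSeq window. TTTCCCGC or TTTGGCGC, on either strand, was present for 152 of 2512 genes called higher with AOA (6.05%), 148 of 4423 genes not called (3.35%) and 48 of 2503 genes called lower (1.92%). With TTTCGCGC and TTTGCCGC added, a choice made once the data were known, these shares were 8.04%, 4.52% and 2.64%, and with the 6-letter cores TTCCCG and TTGGCG they were 40.5%, 34.8% and 28.4%. The order of the groups was the same for each of these sets of letters. No test was run, genes are not independent of each other, and base composition of the promoters, which also sets how often such letters occur, was not examined.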
